A study of Homo sapiens with 9 samples.

Results

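The genes described here are DLGAP4 and 9 other genes of the excitatory postsynaptic scaffold: DLGAP1, DLGAP3, DLG1, DLG3, DLG4, DLG5, HOMER1, HOMER3 and SHANK3. They were chosen by name. DLGAP4 was picked because its messenger RNA was lower in the libraries that received a microRNA mimic. The authors also named it as a putative target of that microRNA. Its values and its seed match below are therefore a description with no test. The other 9 were taken from its interaction partners and relatives. The table of estimated counts, which covers 14943 genes after the authors' filter on low expression, holds 9 of the 10. DLGAP1 is the one that is absent from it.

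SH-Sy5y, a human neuroblastoma cell line of neuroblast character, was transfected and harvested after 48 h. Control cells (Ctrl.) took up 40 pmol of a negative control oligonucleotide and no mimic. Cells of the 10 nM group were given 20 pmol of a hsa-miR-1229-3p mimic plus 20 pmol of the control oligonucleotide. Those of the 20 nM group were given 40 pmol of mimic and 0 pmol of control oligonucleotide, so the control oligonucleotide drops out as the mimic goes up and the contributions of both cannot be told apart. All 3 groups share the cell line, the transfection and the same summed amount of oligonucleotide, with 3 libraries of polyadenylated RNA each and 17.4 to 28.2 M estimated counts per library. Where possible the RNA of a pair of wells was combined, and nothing in the labels says that the libraries came from separate cultures, so p-values measure only the spread between these samples, which may be technical. The experiment was made to look for direct targets of the microRNA.

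The postsynaptic density of an excitatory synapse is a layered protein lattice beneath the receptor membrane. DLG proteins sit closest to the membrane, where their PDZ domains hold the tails of glutamate receptors and adhesion molecules. DLGAP proteins bind the guanylate kinase domain of the DLG family and, through their own tail, the PDZ domain of SHANK proteins. SHANK proteins in turn bind HOMER, which reaches metabotropic receptors and the actin cytoskeleton. Only messenger RNA was measured here, not protein and not synapses.

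A microRNA lowers messenger RNAs that pair with its seed, mostly in the 3′ untranslated region (UTR), and the seed is the stretch of bases 2 to 8 near the 5′ end. The sequence of the mature microRNA is given because every site below is read against it. It is 23 bases long, comes from chr5:179798278-179798300 on the minus strand (RefSeq, GRCh38.p14), and is printed 5′ to 3′ with the seed in capitals.
hsa-miR-1229-3p: cUCUCACCacugcccucccacag

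The longest annotated 3′ UTR of each gene (GENCODE 44, GRCh38) was searched on the transcript strand for the 8-mer GGTGAGAA, the 7-mer GGTGAGA that pairs with bases 2 to 8, the 7-mer GTGAGAA that pairs with bases 2 to 7 and ends in A, and the 6-mer GTGAGA. The shorter motifs lie inside the longer ones, and each place was counted under its longest match. Of 13778 measured genes with a 3′ UTR of at least 50 bases, 22.6% held an 8-mer or a 7-mer (8-mer as the strongest match 4.61%, 7-mer to bases 2 to 8 8.65%, 7-mer ending in A 9.34%), 15.8% held the 6-mer at most and 61.6% held no match. Among the 9 measured scaffold genes, DLGAP4 and DLG3 held such a 7-mer or 8-mer, which makes 2 of 9. DLGAP4 was chosen as a putative target, so its match is not independent of the choice. Among the other 8, only DLG3 held one.

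The sites that the results below refer to are printed as windows of 30 bases that end with the match, 5′ to 3′ on the transcript strand, with the match in capitals. DLGAP4 is shown because its level set the choice of genes, DLG3 because it carries the longest match and the most matches, and SHANK3 because it was the member whose level passed the test. In DLG3 the first window holds a further 7-mer to bases 2 to 8 just ahead of the capitals, in lower case.
DLGAP4, 7-mer ending in A, chr20:36528586-36528615, plus strand: cctccctacctcacaggcatgttGTGAGAA
DLG3, 7-mer to bases 2 to 8, chrX:70503061-70503090, plus strand: agggcttttgcctggggtgagagGGTGAGA
DLG3, 8-mer, chrX:70504713-70504742, plus strand: ctgatttagtagcagagaactgGGTGAGAA
SHANK3, 6-mer, chr22:50732349-50732378, plus strand: cgtgtgcatgcgtggggtgtacctGTGAGA

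In DLGAP4 the match covers bases 1578 to 1584 of a 3′ UTR of 1606 bases, so it lies close to the annotated 3′ end. In DLG3 the matches begin at bases 807, 815 and 2466 of 3221. The 6-mer of SHANK3 covers bases 1061 to 1066 of 1900. DLG5 and HOMER1 held 1 6-mer each, as did the unmeasured DLGAP1, and the 3′ UTRs of DLGAP3, DLG1, DLG4 and HOMER3, 242 to 3521 bases long, held none of these letters. A match is a string of letters and not a measured binding site.

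**Figure D1:**
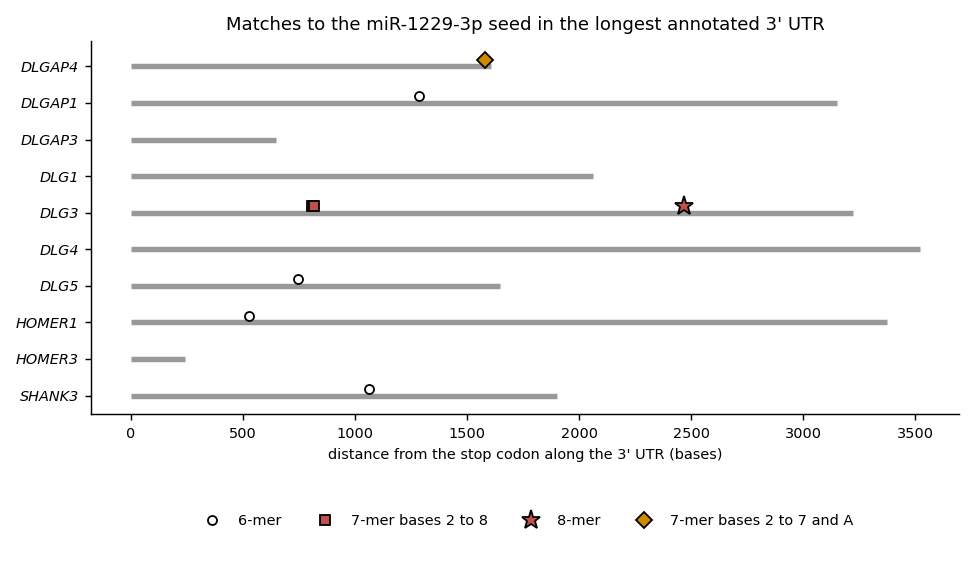
Places of the seed matches along the longest annotated 3′ UTR of the 10 listed scaffold genes; the horizontal axis is the distance from the stop codon in bases, each grey line is a UTR and each symbol a match, by kind. The DLGAP4 match lies at base 1578 of 1606, DLG3 carries 3 matches, and 4 genes carry none.

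Levels are given as CPM, the counts of a gene per 1 M counts of its library, scaled by the trimmed mean of M-values, and they were not corrected for anything further. Fold changes are on the log2 scale with their standard error (SE) and come from a model of all 9 libraries with 1 surrogate variable, a column that stands for variation between libraries that the groups do not account for. The ratio of mean CPM can therefore differ from the fold change. Some other settings given below differ in more than the named way. The fit with the replicate number as a block and the fit with only the 2 groups compared both also lack the surrogate variable. What they change cannot be told apart from its loss. One library stood apart: replicate 3 at 20 nM lay at 47.4 on the first principal component (30.4% of the variance) against -17.1 to 7.72 for the other 8, and it held the highest CPM of the 9 libraries for 30.8% of all genes. It also held the highest value of 6 of the 8 measured scaffold genes other than DLGAP4 (DLG3, DLG4, DLG5, DLGAP3, HOMER3 and SHANK3), so values without it are given where a result rests on them.

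Of the markers of the labelled cell line, all 11 genes of a noradrenergic neuroblastoma list were in the table, with summed levels of 6200 to 6370 CPM in Ctrl., 6580 to 7190 CPM at 10 nM and 6320 to 7770 CPM at 20 nM. Of these, 3 of 11 were lower at 20 nM than in Ctrl., beside 6.08% of all genes, among them ISL1 and TH (edgeR adjusted p = 0.00717 and 0.0462), and TH, the rate-limiting enzyme of catecholamine synthesis, was close to 0 throughout (0.598, 0.521 and 0.154 CPM). Of 9 mesenchymal-type neuroblastoma genes, 8 were in the table (PRRX1 was absent), with sums of 648 to 736, 671 to 754 and 761 to 966 CPM in the 3 groups. Of these, 1 gene, CD44, was higher at 20 nM (edgeR adjusted p = 0.00293), beside 7.8% of all genes, and it was low throughout (1.36, 2.09 and 3.18 CPM). The highest sum at 20 nM is that of the library in which TWIST1 gave 691.6 CPM, replicate 3. TWIST1 gave 445.8 CPM in replicate 1 and 468.5 CPM in replicate 2. Glial genes were near 0: 4 of 8 were absent, GFAP, SOX10 and AQP4 among them, and the other 4 summed to 6.28 to 8.18 CPM over all libraries. These shifts run beside every 20 nM value below, and their part in those values was not tested.

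DLGAP4 (ENSG00000080845, chr20:36306336-36528637, plus strand) encodes a broadly expressed member of the family that ties DLG to SHANK. It stood at 118, 109.9 and 112 CPM in the 3 control libraries. The 10 nM libraries gave 95.8, 91.3 and 102 CPM, and the 20 nM libraries 80.0, 81.0 and 92.1 CPM. All 6 mimic libraries lay below all 3 controls. The 10 nM and 20 nM ranges overlapped, since 20 nM replicate 3 was above 10 nM replicate 2. Group means were 113 ± 4.47 CPM in Ctrl., 96.3 ± 5.19 CPM at 10 nM and 84.4 ± 6.74 CPM at 20 nM (SD, n = 3 each). Groups of CPM were apart in the lower direction for 9.9% of all genes at 10 nM against Ctrl., for 13.7% at 20 nM against Ctrl. and for 6.32% at 20 nM against 10 nM, a background from which nothing is read here because DLGAP4 was chosen on these values.

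The log2 fold change of DLGAP4 was -0.26 (SE 0.049) at 10 nM against Ctrl., -0.51 (SE 0.057) at 20 nM against Ctrl. and -0.25 (SE 0.054) at 20 nM against 10 nM. Without the outlying 20 nM library and under every other setting tried, the value at 20 nM lay between -0.53 and -0.43. The deposited estimates behind these levels were 1622 to 3351 counts per library, so counting error is small beside the spread between libraries. An antisense transcript, DLGAP4-AS1, overlaps the gene and is not in the table. Whether strand was used in counting is not stated, so reads from both could not be told apart.

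**Figure D2:**
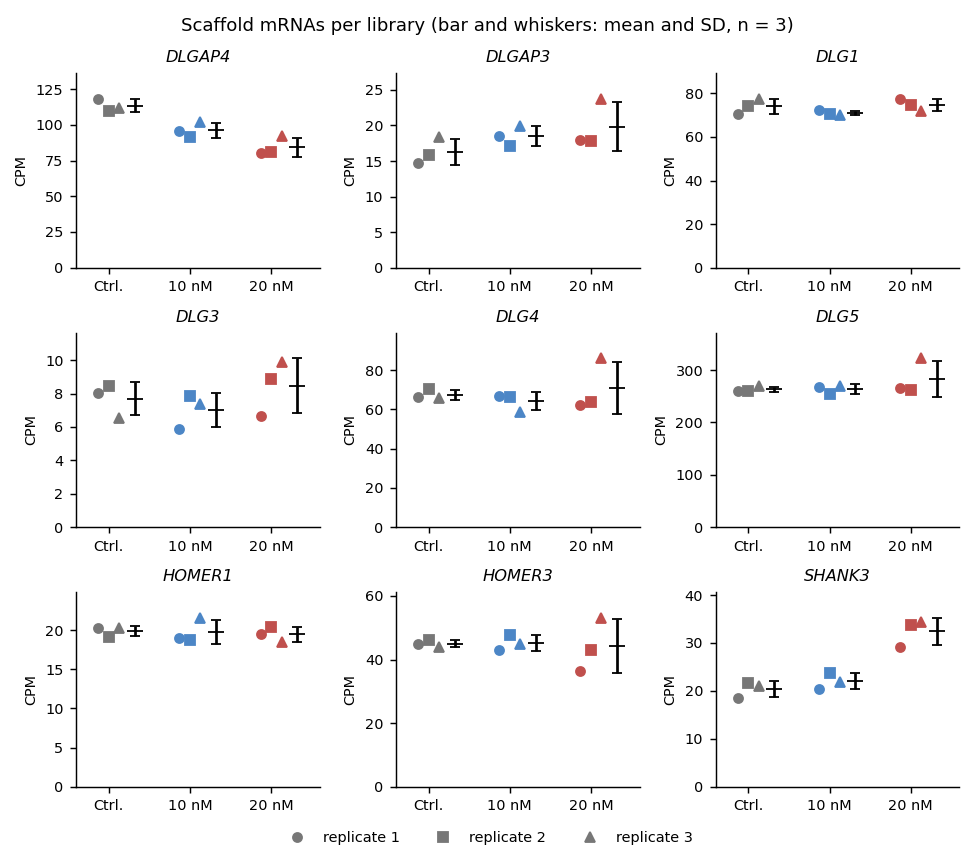
CPM of the 9 measured scaffold genes in each library, by group (horizontal axis), with the mean and SD of 3 libraries as bar and whiskers; each vertical axis starts at 0. DLGAP4 was lower in all 6 mimic libraries, SHANK3 was higher in the 3 libraries at 20 nM (29.1 to 34.4 CPM) than in the other 6, and the remaining 7 genes overlapped between groups.

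DLGAP3 (chr1:34865436-34929650, minus strand), the relative that is concentrated in the striatum of the brain, was low in these cells. It gave 14.8, 15.8 and 18.4 CPM in Ctrl., 18.5, 17.1 and 19.9 CPM at 10 nM and 17.9, 17.8 and 23.8 CPM at 20 nM. The groups overlapped, and the upper end was set by 20 nM replicate 3. Its log2 fold change was 0.14 (SE 0.088) at 10 nM and 0.09 (SE 0.099) at 20 nM, with edgeR adjusted p = 0.519 and 0.591. DLGAP1 (ENSG00000170579, chr18:3496032-4455307, minus strand), the founding relative in neurons, has no value to give.

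The DLG genes, which encode the layer next to the membrane, showed no called change. DLG1 (chr3:197042560-197299330, minus strand), which takes part in trafficking of AMPA receptors and in epithelial polarity, gave 70.5, 74.2 and 77.6 CPM in Ctrl., 72.2, 70.8 and 70.3 CPM at 10 nM and 77.4, 74.7 and 71.8 CPM at 20 nM. The groups overlapped. Its fold change at 20 nM was 0.04 (SE 0.054, edgeR adjusted p = 0.672), the narrowest error but one among these 8 genes.

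DLG3 (chrX:70444835-70505490, plus strand), an early-expressed relative whose loss causes X-linked intellectual disability, carries the 8-mer and both 7-mers printed above. Its levels were 8.06, 8.43 and 6.55 CPM in Ctrl., 5.90, 7.83 and 7.37 CPM at 10 nM and 6.65, 8.86 and 9.89 CPM at 20 nM. No group stood apart. The fold change was -0.17 (SE 0.148, edgeR adjusted p = 0.639) at 10 nM and -0.03 (SE 0.165, adjusted p = 0.932) at 20 nM. This was the least abundant listed gene, at 129 to 244 counts per library, and its SE was the widest, so a fold change of the size of DLGAP4 at 10 nM would lie within 2 SE of 0 and might not be seen here. With each of the 9 libraries left out in turn, its value at 20 nM ran from -0.20 to 0.21.

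DLG4 (chr17:7187187-7219841, minus strand), the most abundant scaffold of mature excitatory synapses, gave 66.0, 70.3 and 65.9 CPM in Ctrl., 67.0, 66.4 and 58.8 CPM at 10 nM and 62.4, 63.8 and 86.1 CPM at 20 nM. At 20 nM replicate 3 lay above all other libraries, and the other 2 lay below all 3 controls. Its modelled fold change at 20 nM was -0.10 (SE 0.076, edgeR adjusted p = 0.423), although the mean CPM was higher (70.8 ± 13.3 against 67.4 ± 2.50, SD, n = 3). With no surrogate variable the sign turned, to 0.07. The antisense neighbour ACADVL overlaps DLG4 and had mean levels of 180.3 CPM in Ctrl., 195 CPM at 10 nM and 216 CPM at 20 nM, and reads of the pair may have been exchanged.

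DLG5 (chr10:77790791-77926755, minus strand), a larger relative known from cell polarity and cell junctions, was the most abundant of the listed genes, also per length (below). It stood at 260.4, 260.5 and 269 CPM in Ctrl., 267, 254 and 270.4 CPM at 10 nM and 266, 261 and 323 CPM at 20 nM. Apart from 20 nM replicate 3, all 8 libraries fell within 254 to 270.4 CPM. The fold change was -0.01 (SE 0.048, edgeR adjusted p = 0.90) at 20 nM. The table lists DLG5 under ENSG00000274429, which the annotation used here does not place, and it was matched by symbol to ENSG00000151208.

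HOMER1 (chr5:79372636-79514134, minus strand), whose short form is induced by neuronal activity, was low in these cells. It gave 20.3, 19.2 and 20.2 CPM in Ctrl., 19.0, 18.8 and 21.6 CPM at 10 nM and 19.5, 20.4 and 18.5 CPM at 20 nM. Every group overlapped the others, and the fold change was -0.01 (SE 0.087, edgeR adjusted p = 0.966) at 20 nM. HOMER3 (chr19:18929201-18941261, minus strand) gave 44.8, 46.1 and 44.02 CPM in Ctrl. and 42.9, 47.8 and 45.0 CPM at 10 nM. At 20 nM it gave 36.5, 43.0 and 53.2 CPM, the lowest and the highest of all 9 libraries in 1 group.

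The modelled fold change of HOMER3 at 20 nM was -0.21 (SE 0.070), which missed the threshold (edgeR adjusted p = 0.0604). It passed with 1 more surrogate variable (-0.25, adjusted p = 0.0252), was -0.02 with none (adjusted p = 0.919) and -0.05 without 20 nM replicate 1 (adjusted p = 0.726). Its mean CPM hardly moved, from 45.0 ± 1.03 to 44.2 ± 8.40 (SD, n = 3). An unnamed protein-coding gene on the same strand overlaps HOMER3 and is not in the table.

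SHANK3 (ENSG00000251322, chr22:50674415-50733212, plus strand) is the master scaffold of the deeper layer, and loss of 1 copy causes a syndrome of intellectual disability and autism. Its levels were 18.6, 21.7 and 21.0 CPM in Ctrl. and 20.5, 23.7 and 21.9 CPM at 10 nM, ranges that overlap. At 20 nM it gave 29.1, 33.7 and 34.4 CPM. All 3 of these lay above the other 6 libraries, a pattern that 15.2% of all genes had against Ctrl. and 7.92% against 10 nM. Group means were 20.4 ± 1.64, 22.03 ± 1.63 and 32.4 ± 2.87 CPM (SD, n = 3 each).

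SHANK3 rose by 0.60 (log2, SE 0.091) at 20 nM against Ctrl. and by 0.50 (SE 0.087) at 20 nM against 10 nM (edgeR, Benjamini-Hochberg adjusted p = 0.00105 and 0.00755). Against Ctrl. it passed under all 18 other settings, between 0.50 and 0.71, and without the outlying 20 nM replicate 3 it was 0.62 (adjusted p = 0.00091). Of the 18, 1 setting leaves out a filter that removed 0 genes. That setting repeats the reported fit, here and in every such count below. Between 20 nM and 10 nM SHANK3 passed under 16 of 18. It missed there without 20 nM replicate 2 (0.42, adjusted p = 0.0578) and with only the 2 groups compared and no surrogate variable (0.55, adjusted p = 0.197). At 10 nM against Ctrl. the fold change was 0.09 (SE 0.084, adjusted p = 0.665). The counts behind it were 384 to 850.4 per library.

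Counted together, 0 of the 8 measured genes other than DLGAP4 passed at 10 nM (edgeR), beside 0.649% of all genes tested (0.221% higher and 0.428% lower). In the same comparison 0 of the 8 reached an unadjusted p of 0.05, beside 13.9% of all genes. DESeq2 also called 0, though it gave no adjusted p for DLG3 and DLGAP3. With the replicate number as a block, 3 genes of all 14943 passed at 10 nM, against 97 without it, and again 0 of the 8. At 20 nM against Ctrl. 1 of 8 passed, SHANK3, beside 13.9% of all genes (7.8% higher and 6.08% lower). Between 20 nM and 10 nM it was again 1 of 8, beside 2.79% (1.91% higher and 0.883% lower). With 1 gene called of 8, these shares are no result about the group. The median log2 fold change of the 8 was -0.03 at 10 nM, -0.01 at 20 nM and 0.01 between both doses, next to medians of 0.00047, -0.00016 and 0.0028 over all genes. The 3 comparisons share libraries, so they do not count as separate evidence.

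**Figure D3:**
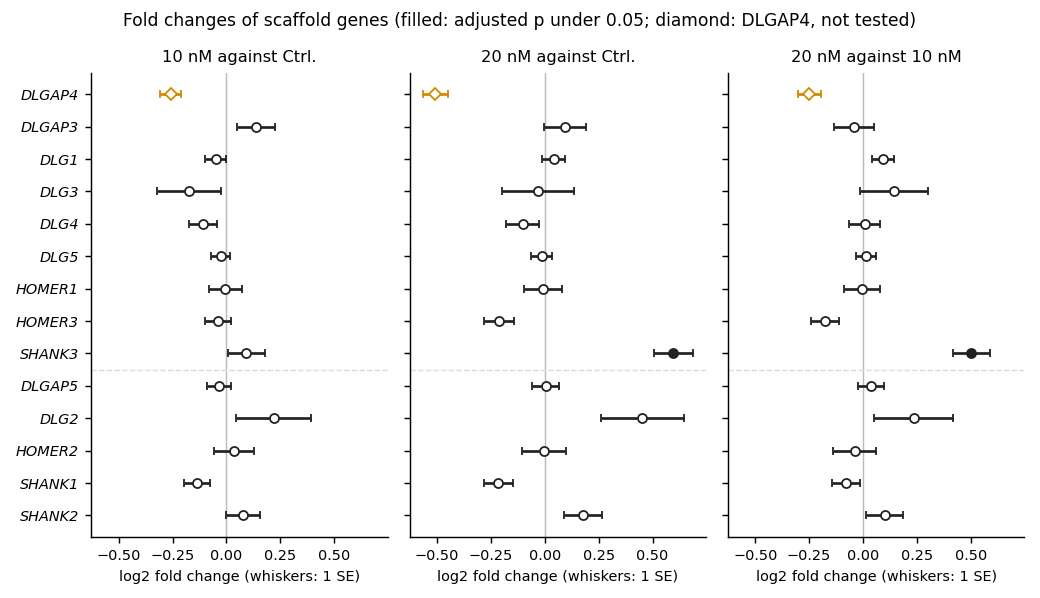
Log2 fold change (horizontal axis) with 1 SE of 8 tested scaffold genes, DLGAP4 (diamond, not tested) and, below the dashed line, 5 of their 6 unlisted relatives, in the 3 comparisons; DLGAP2 is left out because its SE of 0.497 at 20 nM would stretch the axis. Filled points passed an adjusted p of 0.05 (edgeR): SHANK3 at 20 nM against Ctrl. (0.60) and against 10 nM (0.50), and no other.

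The 4 families have 6 further members that the list leaves out, and all were in the table: DLGAP2, DLGAP5, DLG2, HOMER2, SHANK1 and SHANK2. None of the 6 passed in any of the 3 comparisons (edgeR). DESeq2 called 0 of them too, but it gave no adjusted p for DLGAP2 at 20 nM. An unadjusted p under 0.05 (edgeR) was reached by 1, 2 and 0 of the 6 at 10 nM, at 20 nM and between the doses. Of all genes, 13.9%, 28% and 14.9% reached it. SHANK1, a brain-enriched relative of SHANK3, came closest. It gave 64.2, 59.1 and 61.8 CPM in Ctrl., 58.4, 54.5 and 59.5 CPM at 10 nM and 55.4, 51.7 and 67.9 CPM at 20 nM. Its fold change at 20 nM was -0.22 (SE 0.068, edgeR adjusted p = 0.0539), opposite in sign to that of SHANK3, and it passed under 6 of 18 other settings. It moved to -0.08 with no surrogate variable (adjusted p = 0.625).

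SHANK2, the remaining SHANK gene, had 17.1, 15.03 and 15.01 CPM in Ctrl. and 17.9, 17.6 and 17.4 CPM at 20 nM, with a fold change of 0.18 (SE 0.088, edgeR adjusted p = 0.215). DLG2, the DLG gene that clusters receptors together with DLG4, was low and uneven, at 4.30 to 8.26 CPM over all 9 libraries, and replicate 3 was the lowest of its group in each of the 3 groups. Its fold change at 20 nM was 0.45 with an SE of 0.192 (edgeR adjusted p = 0.142). DLGAP5, which despite its name serves the mitotic spindle, stood at 61.3 to 66.0 CPM in Ctrl. and 49.4 to 63.5 CPM at 20 nM (0.00, SE 0.063). HOMER2 stood at 23.8 to 30.5 CPM in Ctrl. and 26.2 to 29.8 CPM at 20 nM (-0.00, SE 0.104). DLGAP2 was barely detected, at 0.223 to 0.729 CPM, too low for any but a large difference to be seen at this depth (SE 0.497).

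Of these relatives, 3 of 6 held a 7-mer to bases 2 to 8 (DLG2 and SHANK1 with 2 each, HOMER2 with 1), none held the 8-mer and none the 7-mer ending in A. The HOMER2 match lies in a UTR of 10328 bases, and its representative transcript, with 732 bases of UTR, holds no match. In both groups together, 5 measured genes held a 7-mer or an 8-mer. Their fold changes at 20 nM were -0.51 in DLGAP4, -0.22 in SHANK1, -0.03 in DLG3, -0.00 in HOMER2 and 0.45 in DLG2. Only DLGAP4 was chosen on its value and as a putative target, and none of the other 4 passed.

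**Figure D4:**
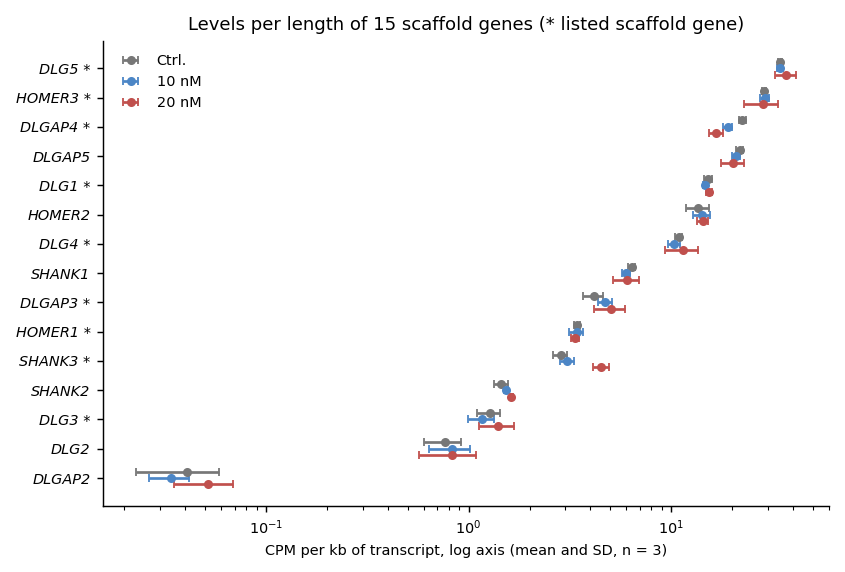
CPM per kb of transcript (log axis, mean and SD of 3 libraries per group) of the 15 measured scaffold genes, ordered by the level in Ctrl. (* marks a listed gene). Values span from 0.0409 for DLGAP2 to 34.5 for DLG5; DLGAP4 follows DLG5 and HOMER3 in Ctrl. and its 3 group means step down, whereas those of SHANK3 part only at 20 nM.

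To set genes beside each other, CPM was divided by the length of a representative transcript (CPM per kb). In Ctrl., DLG5 led with 34.5 ± 0.638 CPM per kb (SD, n = 3), followed by HOMER3 with 28.8 ± 0.660, DLGAP4 with 22.4 ± 0.884 and DLG1 with 15.3 ± 0.728. DLG4 had 10.9 ± 0.405, DLGAP3 4.16 ± 0.470, HOMER1 3.43 ± 0.104, SHANK3 2.85 ± 0.229 and DLG3 1.27 ± 0.165 CPM per kb. Neighbours in this order lay further apart than 1 SD of each, DLGAP3 against HOMER1 by the least. Among the relatives, DLGAP5 (21.9 ± 0.905) overlapped DLGAP4 within 1 SD and HOMER2 (13.6 ± 1.81) overlapped DLG1. At 20 nM DLGAP4 was at 16.7 ± 1.33 and SHANK3 at 4.52 ± 0.400 CPM per kb. DLGAP4 then stood behind DLGAP5 (20.2 ± 2.66), and SHANK3 above HOMER1 (3.36 ± 0.161) and below DLGAP3 (5.06 ± 0.873). DLGAP4 overlapped DLGAP5 within 1 SD, and also DLG1 (15.4 ± 0.579). SHANK3 was within 1 SD of DLGAP3.

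The order depends on the length chosen. Divided by the merged length of all exons, DLG5 still led with 25.1 CPM per kb in Ctrl., HOMER3 (13.1) and DLGAP4 (12.9) came close to each other, and DLG1 dropped to 4.48, under DLG4 with 6.55. DLG3 remained the lowest listed gene with 0.975 CPM per kb. Which isoforms these cells used was not measured in the gene-level table.

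Genes that share the DLGAP4 pattern were looked for over the 9 libraries, among 13682 genes of at least 1 CPM. The measure was the root mean square (RMS) difference of log2 CPM, after centring each gene on its mean in the control libraries. A shared shift in the mimic libraries, on which DLGAP4 was chosen, therefore counts as nearness. Among the nearest 5 were BPHL (0.0543), a serine hydrolase, ZNF595 (0.0608), a zinc finger protein, SLC6A2 (0.064), the noradrenaline transporter, and JARID2 (0.064), a partner of Polycomb complexes. The median over these 13682 genes was 0.328. The same 5 came first among the 10508 genes of at least 10 CPM. BPHL had 35.02, 32.4 and 31.2 CPM in Ctrl., 27.3, 28.8 and 29.4 CPM at 10 nM and 22.5, 24.04 and 25.6 CPM at 20 nM. By match, JARID2 held an 8-mer, SLC6A2 a 7-mer to bases 2 to 8, and BPHL and ZNF595 none.

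The scaffold genes were no neighbours of DLGAP4 by this measure. SHANK1 was nearest with 0.216, then DLGAP5 (0.256), HOMER1 (0.278), HOMER3 (0.286), DLG1 (0.292) and DLG4 (0.317). The other 8 lay beyond the median given above: DLG5 (0.337), HOMER2 (0.359), DLG3 (0.372), SHANK2 (0.396), DLGAP3 (0.484), DLG2 (0.519), DLGAP2 (0.555) and, farthest of the 14, SHANK3 (0.673). DLGAP2, at a mean of 0.44 CPM, is not among the genes of that median. These distances rest on libraries that also differ in depth and in the standing of 20 nM replicate 3, and they carry no test. Low counts limit those of DLG3, DLG2 and DLGAP2.

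A further 5 lists place the scaffold in its surroundings. Of direct scaffold partners, 21 of 21 were measured. At 10 nM 0 passed in edgeR (6 with an unadjusted p under 0.05, beside 13.9% of all genes here and in the lists that follow, and 1 in DESeq2), at 20 nM 2 were higher and 2 lower, and the median was -0.03. DYNLL2, a dynein light chain that binds DLGAP proteins, had 158 ± 1.37 CPM in Ctrl., 146 ± 2.17 CPM at 10 nM and 131.5 ± 22.15 CPM at 20 nM (SD, n = 3 each), and fell by 0.43 on the log2 scale (SE 0.053, edgeR adjusted p = 0.000259). Its 20 nM libraries gave 113, 126 and 156 CPM, so replicate 3 was at the level of Ctrl., and the call was lost with no surrogate variable (-0.27, adjusted p = 0.126), with the replicate block (-0.27, adjusted p = 0.0748) and with only the 2 groups compared (-0.27, adjusted p = 0.222). Between the doses it fell by 0.27 (adjusted p = 0.011), and that call was lost under the same 3 settings (-0.15, -0.16 and -0.16, adjusted p = 0.643, 0.459 and 0.811), without 20 nM replicate 1 (-0.18, adjusted p = 0.247) and without 20 nM replicate 2 (-0.29, adjusted p = 0.0505).

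CYLD, a deubiquitinase of the postsynaptic density with a 7-mer to bases 2 to 8, fell by 0.49 (33.2 ± 2.67 CPM in Ctrl., 26.8 ± 2.87 at 10 nM and 24.5 ± 1.10 at 20 nM, edgeR adjusted p = 0.00523). PRR7, a membrane adaptor that binds DLG4, rose by 0.45 (33.2 ± 1.09, 40.6 ± 2.46 and 45.9 ± 1.498 CPM, adjusted p = 0.000943) and its short 3′ UTR held no match. Both passed under all 18 other settings. The remaining called partner was LRRC7, a leucine-rich repeat scaffold with a 7-mer to bases 2 to 8, which rose by 0.57 (5.74 ± 0.817, 6.92 ± 0.600 and 7.38 ± 1.67 CPM, adjusted p = 0.0164). Its call was lost with the replicate block (0.34, adjusted p = 0.185), no surrogate variable (0.35, adjusted p = 0.25), only the 2 groups compared (0.35, adjusted p = 0.361) and without 20 nM replicate 1 (0.47, adjusted p = 0.124) or 2 (0.56, adjusted p = 0.0706). Of the 4 called partners, the 2 with a 7-mer went in opposite directions. Their searched 3′ UTRs were 5427 bases (CYLD) and 22477 bases (LRRC7) long. Nothing about seed matching is read from these 2 genes.

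Of other PDZ scaffolds, 18 of 21 were measured (GRIP1, LIN7A and MPP7 were absent). At 10 nM 0 passed in edgeR (2 with an unadjusted p under 0.05, 0 in DESeq2), and at 20 nM 2 were higher and 2 lower, with a median of 0.0050. TJP1, a tight junction scaffold, rose by 0.54 (59.1 ± 1.40, 65.1 ± 2.78 and 81.4 ± 6.84 CPM, edgeR adjusted p = 3.7e-05) and by 0.38 between the doses (adjusted p = 0.00123). Between the doses the TJP1 call was lost with the replicate block (0.32, adjusted p = 0.0506), with no surrogate variable (0.32, adjusted p = 0.112) and with only the 2 groups compared (0.31, adjusted p = 0.431). MAGI2, a synaptic scaffold with a 7-mer to bases 2 to 8, fell by 0.38 (23.7 ± 0.336, 20.9 ± 2.18 and 17.2 ± 1.24 CPM, adjusted p = 0.0126), though not past the threshold without 20 nM replicate 1 (-0.36, adjusted p = 0.0594). APBA1, an adaptor of vesicle release with a 7-mer ending in A, rose by 0.21 (70.8 ± 0.596, 73.2 ± 2.80 and 81.2 ± 1.49 CPM, adjusted p = 0.0155), and missed without 20 nM replicate 1 (0.18, adjusted p = 0.0963), with no surrogate variable (0.20, adjusted p = 0.0656) and with only the 2 groups compared (0.19, adjusted p = 0.166). The remaining called gene, CASK, a membrane-associated guanylate kinase with a 7-mer to bases 2 to 8, was lower by 0.22 (42.9 ± 1.69, 39.0 ± 0.978 and 36.4 ± 1.03 CPM, adjusted p = 0.0361), and it passed under 10 of 18 other settings, with adjusted p from 0.0264 to 0.14. Without Ctrl. replicate 2 or 3, or without 20 nM replicate 1 or 2, it missed (-0.24 to -0.20).

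Glutamate receptor genes were mostly low, with 17 of 24 in the table (GRIA1, GRIN2A, GRIN2B, GRIK1, GRIK3, GRM5 and CACNG3 were absent). At 10 nM 0 passed in edgeR (2 with an unadjusted p under 0.05, 0 in DESeq2) and at 20 nM 1 was lower, with a list median of 0.048. That one was CACNG2, the auxiliary subunit that ties AMPA receptors to DLG4, which holds a 7-mer to bases 2 to 8. It fell by 0.76 (SE 0.138, edgeR adjusted p = 0.00323), at 9.19, 10.1 and 9.496 CPM in Ctrl. and 5.73, 6.19 and 9.44 CPM at 20 nM. Replicate 3 at 20 nM lay within the control range, and the call was lost with no surrogate variable (-0.42, adjusted p = 0.205), with the replicate block (-0.45, adjusted p = 0.0704) and with only the 2 groups compared (-0.43, adjusted p = 0.248).

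Of synaptic adhesion genes 16 of 20 were measured (EPHB1, IL1RAPL1, LRFN5 and LRRTM3 were absent). At 10 nM 0 passed in edgeR (2 with an unadjusted p under 0.05, 0 in DESeq2), and at 20 nM 2 were higher, with a median of 0.042. Both are adhesion molecules that bind DLG proteins through their tails: LRFN2 rose by 0.51 (9.59 ± 0.296, 12.9 ± 1.40 and 16.5 ± 3.99 CPM, edgeR adjusted p = 0.00445) and LRFN1 by 0.37 (25.9 ± 2.53, 31.2 ± 2.23 and 37.4 ± 5.99 CPM, adjusted p = 0.0195). The LRFN2 call was lost with only the 2 groups compared (0.78, adjusted p = 0.0511). The LRFN1 call was lost there too (0.52, adjusted p = 0.0805), and without Ctrl. replicate 3 (0.26, adjusted p = 0.0713) and without 20 nM replicate 2 (0.31, adjusted p = 0.135). Their relative LRFN4 was lower at 20 nM than at 10 nM by 0.25 (87.2 ± 12.6 against 95.9 ± 7.51 CPM, adjusted p = 0.0216), at a mean of 87.3 ± 1.24 CPM in Ctrl. It passed under 11 of 18 other settings, and missed with the replicate block (-0.14, adjusted p = 0.429), no surrogate variable (-0.14, adjusted p = 0.664), only the 2 groups compared (-0.15, adjusted p = 0.811) and without replicate 1 or 3 at 10 nM or replicate 1 or 2 at 20 nM (-0.26 to -0.21).

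All 10 polarity partners of the DLG family were measured. At 10 nM 0 passed in edgeR (0 with an unadjusted p under 0.05, 0 in DESeq2) and at 20 nM 1 was lower, with a median of -0.0077. LLGL1, which acts with DLG1 in the basolateral polarity module, fell by 0.18 (134.6 ± 1.48, 129 ± 4.97 and 123 ± 5.47 CPM, edgeR adjusted p = 0.0257). It passed under 11 of 18 other settings, and missed with the replicate block (-0.13, adjusted p = 0.139), no surrogate variable (-0.13, adjusted p = 0.213), only the 2 groups compared (-0.14, adjusted p = 0.306) and without replicate 1 or 2 of Ctrl. or of 20 nM (-0.20 to -0.14). Among all 5 lists, the shares past the threshold at 20 nM, from 1 of 17 to 4 of 18, stand beside 13.9% of all genes.

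**Figure D5:**
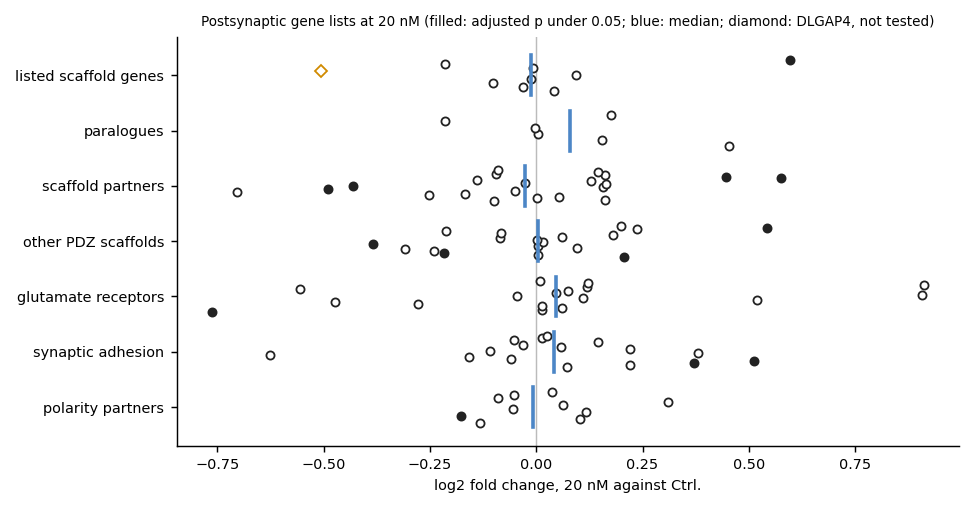
Log2 fold change at 20 nM against Ctrl. (horizontal axis) of every measured gene in the listed scaffold genes, their relatives and the 5 surrounding lists. Filled points passed an adjusted p of 0.05 (edgeR), and DLGAP4 is the diamond. Blue bars are list medians, and that of the listed scaffold genes includes DLGAP4. List medians lie between -0.03 and 0.08, with SHANK3 (0.60) and LRRC7 (0.57) the highest filled points and CACNG2 (-0.76) the lowest.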

How the data were processed

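RNA of 9 SH-Sy5y libraries (3 per group, by sample title) was measured by sequencing of polyadenylated RNA. The authors mapped reads with Salmon to GRCh38.p13 with Ensembl annotation, added up the estimated counts of each gene symbol and dropped weakly expressed genes (filterByExpr). The deposited estimated counts are not whole in 88.8% of values and were rounded. The authors' deposited table of surrogate-corrected log values and 3 tables of their own comparisons (fold changes, likelihood ratios and p-values) were not used. Members and gene lists were chosen with earlier results of these data known.

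Counts were analysed with edgeR 4.0.16 (R 4.3.3): TMM scaling, 1 surrogate variable from sva 3.50.0 (num.sv, seed 1, held between 1 and 3), quasi-likelihood tests over all 9 libraries and Benjamini-Hochberg adjustment over 14943 genes, threshold 0.05. filterByExpr removed 0 further genes, so no low-level gene entered or left through this step. The SE is the log2 fold change over the square root of F. The fit was run on simulated counts that held no shared effect of a replicate number and no outlying library. That run says nothing on either. Sample titles give the libraries of every group the numbers 1 to 3. Same-numbered libraries deviated together from their group means in both comparisons with Ctrl. (r = 0.107 to 0.185, every pair over 0.1). Between the doses 1 pair was at 0.0288. Over the series, 8 of 9 libraries correlated best with their own number in both other groups. The numbers may thus mark sets, but the reported fit has no block for them. Its p-values leave any pairing out. The replicate block, fitted without the surrogate variable, is given beside a call it changes. Genes named from the 5 surrounding lists were up to 3 per list and comparison with the smallest adjusted p and at least 1 CPM. LRRC7 and CASK were named after their values were seen. Positions and 3′ UTRs came from GENCODE 44, where 14105 genes were found by identifier, 768 by symbol only and 70 were not found. Alternatives comprised other scaling, DESeq2 1.42.0, filters, surrogate variables, a replicate block, only the 2 groups compared, and each library left out. The replicate block and the fit of only the 2 groups compared held no surrogate variable. Library totals of 17.4 to 28.2 M bound the counting error only. Results of some genes are not reported here.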

Additional observations from a re-analysis of the deposited data

Results flagged for a closer look

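The change of SHANK3 differed between the doses, where the amount of control oligonucleotide differed too: the change against Ctrl. at 20 nM exceeded that at 10 nM by 0.50 on the log2 scale (edgeR, Benjamini-Hochberg adjusted p = 0.00755), with 3 of 3 libraries at 20 nM above 3 of 3 at 10 nM. It was 0.51 without 20 nM replicate 3 (adjusted p = 0.0126) and 0.42 without 20 nM replicate 2 (adjusted p = 0.0578). Both changes share the control libraries.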

How the results depend on the processing

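Of 860 fold changes of named genes recomputed under other settings, 716 kept their direction and their side of the threshold, 68 lost the call, 7 gained it and 69 turned sign. The cause was not tested in any of these. The setting with no filter beyond the authors' own repeats the reported fit, so its values are all among the 716. DLGAP4, which carries no test here, is in this tally: 10 of its values at 10 nM and 7 between the doses are among the 68. At 20 nM against Ctrl. the count of scaffold genes past the threshold, DLGAP4 aside, was 1 under all settings but one, with 1 more surrogate variable, where it was 2 (HOMER3 added). Between 20 nM and 10 nM it was 1, but 0 with only the 2 groups compared and, with 1 library left out, 0 to 1 (0 without 20 nM replicate 2). Over all genes, the count at 10 nM was 97 in the reported fit, 204 in DESeq2, 5 with no surrogate variable, 76 with only the 2 groups compared and 34 to 160 with 1 library left out. At 20 nM it was 2074, against 954, 344 and 1074 to 2656 for the last 3 of these, and between the doses 417, against 67, 16 and 111 to 462. With the replicate number as a block and no surrogate variable the counts were 3, 2039 and 124. That 8 of 9 libraries correlated best with their own number over the whole series is a hint of sets. The labels do not say what the number stands for, and the reported fit leaves it out. The block changed no call of a listed scaffold gene tested.

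The sign changes concern fold changes that passed neither in the reported fit nor under the setting that turned them. At 10 nM, DLG5 and HOMER3 turned to 0.0020 and 0.0087 with no surrogate variable, 0.0019 and 0.0070 with the replicate block, and 0.0011 and 0.0076 with only the 2 groups compared. At 20 nM, DLG3, DLG4, DLG5, DLGAP5 and HOMER2 turned to 0.145, 0.071, 0.105, -0.115 and 0.076 with no surrogate variable. The block gave 0.129, 0.066, 0.10, -0.119 and 0.082, and only the 2 groups compared gave 0.137, 0.064, 0.098, -0.121 and 0.069. Between the doses, DLGAP3 turned to 0.101, 0.090 and 0.090 under these 3 settings. With 1 more surrogate variable, HOMER1 turned to 0.022 at 10 nM, 0.044 at 20 nM and 0.021 between the doses, DLG5 to 0.0039, DLGAP2 to -0.058 and HOMER2 to 0.090 at 20 nM, and DLG4 to -0.016 between the doses. DLG4 was also -0.0034 there with library totals alone, and DLGAP5 was -0.00040 at 20 nM among genes of at least 1 CPM.

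With each library left out in turn, values that turned ran, at 10 nM, from -0.047 to 0.0022 (DLG5), -0.071 to 0.031 (HOMER1) and -0.074 to 0.011 (HOMER3). At 20 nM they ran from -0.20 to 0.21 (DLG3), -0.026 to 0.018 (DLG5), -0.062 to 0.0034 (HOMER1), -0.239 to 0.417 (DLGAP2), -0.052 to 0.057 (DLGAP5) and -0.072 to 0.111 (HOMER2). Between the doses they ran from -0.091 to 0.062 (DLG4), -0.016 to 0.047 (DLG5) and -0.053 to 0.074 (HOMER1). DESeq2 gave no adjusted p for DLG3 and DLGAP3 at 10 nM or for DLGAP2 at 20 nM. Leaving a library out leaves its group with 2, and low counts limit DLG3, DLG2 and DLGAP2.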
